A study of Homo sapiens with 32 samples.

Results

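Integrins and laminins hold cells to the extracellular matrix. The 31 genes described here are 21 integrin and 10 laminin genes, chosen by their symbols from the 60107 genes of the count table, and all 31 were found in it (ITGA1 to ITGA11, ITGAE, ITGAV, ITGB1 to ITGB8, LAMA1 to LAMA5, LAMB1 to LAMB3, LAMC1 and LAMC3). Their Ensembl identifiers were matched to symbols in GENCODE 29.

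Integrins are receptors made of an alpha and a beta subunit, which span the membrane and link matrix proteins outside the cell to actin or, in hemidesmosomes, to keratin filaments inside it. Laminins are trimers of an alpha, a beta and a gamma chain, and they form the sheet-like base of the basement membrane. The alpha subunit largely sets what an integrin binds. Some alpha subunits prefer laminins and others collagens, while those that bind the short RGD motif recognise proteins such as fibronectin and vitronectin.

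RNA came from HEK293T, a line from human embryonic kidney that carries the SV40 large T antigen, and from U2OS, a line from a human osteosarcoma. It was sequenced as 3′ mRNA tags (QuantSeq), 1 sequence for each captured transcript end. Counts were turned into counts per 1000000 counts on genes (CPM), which do not grow with transcript length. U2OS cells had 24 h of camptothecin (CPT, a poison that traps topoisomerase 1 on DNA) at 400 nM or vehicle (DMSO), and 48 h of recovery (libraries 26 to 29 and 30 to 33). With the same times, HEK293T cells had the ATM kinase inhibitor KU-55933 at 9 µM (libraries 18 to 21, which the deposit labels ATM knockout) or DMSO (22 to 25). The libraries numbered 1 to 17 carry the labels HEK293T CPT (100 nM; 2, 4, 6 and 8), HEK293T DMSO (3, 5, 7 and 17), U2OS ATM KO (10, 12, 14 and 16) and U2OS WT (1, 11, 13 and 15), the last pair of groups grown for 72 h without treatment. The knockout cells came from CRISPR/Cas9 clones picked one by one, and each group of 4 is given by the methods as independent repeats.

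Counts on genes ran from 2887962 to 4161068 in libraries 18 to 33 and from 1232674 to 6362433 in libraries 1 to 17, so that 3 counts corresponded to 0.721 to 1.04 CPM in the former and 0.472 to 2.43 CPM in the latter. By correlation of log2(CPM + 1) over genes with the DMSO libraries 22 to 25 and 30 to 33, 0 of the 16 libraries numbered 18 to 33 went against their labelled cell line, and 14 of the 16 numbered 1 to 17 did. Libraries 2 to 8 resembled U2OS although labelled HEK293T, and libraries 10 to 16 resembled HEK293T although labelled U2OS. Libraries 1 and 17 matched their labels. ATM RNA, the product of the targeted gene, was 39.8, 39.5, 32 and 28.8 CPM in the libraries labelled U2OS ATM KO and 57.2, 26.6, 21.2 and 34.2 CPM in those labelled U2OS WT, and these ranges overlapped. No direction for a condition is therefore drawn from libraries 1 to 17.

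The first comparison asked how the matrix receptors and laminins of U2OS cells stood 48 h after camptothecin. The 2 laminin chains of epithelial basement membranes, alpha 3 and beta 3, rose, and LAMA3 went from almost no counts to a clear level. LAMA4, a chain of vascular and mesenchymal laminins, fell to a few counts. Among the receptors, the collagen-binding ITGA2, the laminin-binding ITGA6 and the leukocyte beta subunit ITGB2 rose, whereas ITGB3, ITGB8, ITGA9, ITGA11 and, on 1 to 3 counts per control library, ITGA8 fell. Of 30 members tested, 5 were past the threshold upward and 6 downward (absolute log2 fold change over 1 and Benjamini-Hochberg adjusted p under 0.05 in edgeR's quasi-likelihood test, adjusted over all 19080 genes tested). Among all genes tested 13.5% were past it, 7.97% upward and 5.5% downward. The median log2 fold change was 0.49 over the members tested, or 0.56 without ITGA8, which had 0 counts in 1 group, against 0.0079 over all genes tested. In bulk RNA fewer cells of a state and less RNA per cell cannot be told apart.

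**Figure D1:**
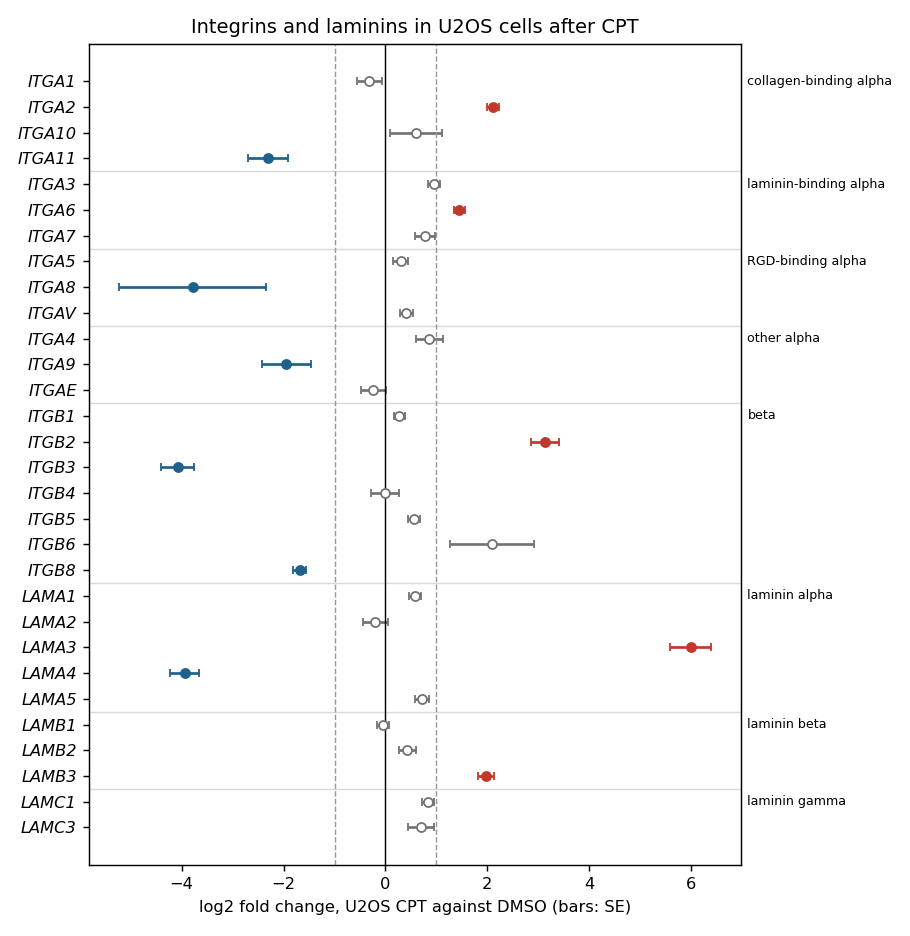
Log2 fold change (x axis) of the 30 tested integrin and laminin genes in U2OS CPT against U2OS DMSO, grouped by role. Bars are standard errors derived from the test's F statistic, which can be too small for genes with few counts in 1 group. Filled red and blue points are past the threshold upward (5 genes) and downward (6 genes), open points are not, and dashed lines mark a log2 fold change of 1 in either direction.

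LAMA3 (ENSG00000053747, chromosome 18) encodes the alpha 3 chain. Its RNA measured 14.7, 15.5, 13.5 and 14.7 CPM in libraries 26 to 29 and 0.309, 0.688, 0 and 0 CPM in libraries 30 to 33. The DMSO libraries together held 3 counts of LAMA3 and the CPT libraries 186. Every CPT library was thus well above every DMSO library. The ratio of the pooled levels was 66.9, with an exact 95% interval of 22.5 to 327 that covers counting error only. In the fit the log2 fold change was 5.99 ± 0.41 (SE, adjusted p = 3.49e-13), and 6.94 without library 31, which held 2 of the 3 DMSO counts. This SE was derived from the test's F statistic, and it is too small to span the counting interval given above. The same caution holds for the SE of other members with a few counts in 1 group.

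LAMB3 (ENSG00000196878, chromosome 1), the beta 3 chain, was already present in vehicle-treated U2OS cells at 37.4, 67.4, 58 and 72.6 CPM. After CPT it stood at 249.5, 208, 186 and 189 CPM. The groups did not overlap, and the log2 fold change was 1.98 ± 0.16 (SE, adjusted p = 1.34e-11), a 3.94-fold rise. Both LAMA3 and LAMB3 were thus higher in each CPT library than in any DMSO library.

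LAMA4 (ENSG00000112769, chromosome 6), the alpha 4 chain, moved the other way. It was at 26.9, 23.4, 19.3 and 15.6 CPM with DMSO and at 1.77, 0.31, 1.39 and 1.25 CPM with CPT. The highest CPT library held 6 counts and the lowest DMSO library 65, so the groups were far apart, and the log2 fold change was -3.94 ± 0.29 (SE, adjusted p = 2.83e-12).

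Sequence 5′ of the start sites is shown for 5 of the members past the threshold, 3 that rose and 2 that fell, as examples of both directions that include LAMA3 and LAMB3. Windows of 250 bases before the start were taken from RefSeq (GRCh38.p14), which had entries for 23 of the 31 members. The members not matched were ITGA3, ITGA7, ITGA9, ITGB2, ITGB3, ITGB4, LAMA1 and LAMC3. Each is written 5′ to 3′ along the gene, and capitals mark matches on either strand to 4 short motifs. The motif of AP-1 was searched as TGANTCA. For SP1 the letters were GGGCGG. The TATA box was taken as TATAAA, and TEAD factors as GGAATG. For LAMB3 the most downstream of 3 listed starts is shown.
LAMA3 chr18:23872770-23873019 (plus strand): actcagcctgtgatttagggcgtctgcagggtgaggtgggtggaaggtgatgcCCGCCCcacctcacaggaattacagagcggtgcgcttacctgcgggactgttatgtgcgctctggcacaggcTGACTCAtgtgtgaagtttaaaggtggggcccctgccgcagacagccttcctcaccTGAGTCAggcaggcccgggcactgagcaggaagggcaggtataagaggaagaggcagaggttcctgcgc
LAMB3 chr1:209651375-209651624 (minus strand): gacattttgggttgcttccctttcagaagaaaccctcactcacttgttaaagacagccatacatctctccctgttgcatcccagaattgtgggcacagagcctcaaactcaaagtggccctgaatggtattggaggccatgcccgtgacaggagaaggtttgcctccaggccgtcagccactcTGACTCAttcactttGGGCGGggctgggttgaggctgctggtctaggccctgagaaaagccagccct
ITGA2 chr5:52989102-52989351 (plus strand): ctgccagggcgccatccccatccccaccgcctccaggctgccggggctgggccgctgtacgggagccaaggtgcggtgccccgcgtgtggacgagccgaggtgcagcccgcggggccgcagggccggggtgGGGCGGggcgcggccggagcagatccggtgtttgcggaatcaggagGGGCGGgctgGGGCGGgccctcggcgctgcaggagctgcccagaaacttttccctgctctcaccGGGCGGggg
LAMA4 chr6:112254568-112254817 (minus strand): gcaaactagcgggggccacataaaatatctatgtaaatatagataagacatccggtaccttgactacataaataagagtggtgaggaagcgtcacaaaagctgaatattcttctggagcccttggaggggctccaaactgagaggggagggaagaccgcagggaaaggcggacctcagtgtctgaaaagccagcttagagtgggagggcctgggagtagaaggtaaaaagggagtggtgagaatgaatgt
ITGB8 chr7:20330650-20330899 (plus strand): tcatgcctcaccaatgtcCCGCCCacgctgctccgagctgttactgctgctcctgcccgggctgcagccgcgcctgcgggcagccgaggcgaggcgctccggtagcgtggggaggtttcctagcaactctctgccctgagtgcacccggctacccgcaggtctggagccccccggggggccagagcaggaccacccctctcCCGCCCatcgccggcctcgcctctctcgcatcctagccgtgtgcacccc

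The AP-1 letters occurred in the LAMA3 window, at 125 and 69 bases before the start, and in this LAMB3 window, at 67 bases before it. The other 2 LAMB3 windows held none. Over all 30 windows of the 23 matched members the AP-1 letters were in 2, a share of 6.67%, near the 6.57% of the 35116 windows of all genes. SP1 letters were in 16 of the 30 windows (53.3%, against 42.6% of all windows), including ITGA2 with 4 matches, ITGB8 with 2, and LAMA3 and LAMB3. The LAMA4 window held none of the 4 motifs. TATAAA was found in 2 of the 30 windows, of ITGA6 and ITGB1 (6.67%, against 10.7% of all windows), and GGAATG in 4, of ITGA5, ITGA10, ITGB1 and LAMA2 (13.3%, against 11.9%). These are matches of letters and no factor was measured, and a window without a match says nothing of factors bound elsewhere.

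The remaining laminin chains moved less. LAMC1, the gamma 1 chain found in most laminins, rose from 324, 342, 267 and 245 CPM to 522, 451, 456 and 423 CPM without overlap (log2 fold change 0.83 ± 0.11, SE, adjusted p = 5.38e-07), which is under the threshold on size. LAMA1, the alpha 1 chain of early embryonic basement membranes, was at 92, 95.3, 72.4 and 82 CPM with DMSO and 111, 102, 112 and 128 CPM with CPT. Its log2 fold change was 0.58 ± 0.11 (SE, adjusted p = 0.000175). LAMA5, the most widespread alpha chain of adult tissues, was at 52.2, 58.8, 38.7 and 46.1 CPM and 84.7, 56.5, 72.7 and 71.1 CPM in the same order, and these ranges overlapped in 1 CPT library. LAMB1, the most abundant beta chain, was at 315, 373, 355 and 361 CPM with DMSO and 353, 326, 278 and 248 CPM with CPT, overlapping, with a log2 fold change of -0.05 ± 0.12 (SE, adjusted p = 0.795). LAMB2, LAMC3 and LAMA2 had log2 fold changes of 0.43, 0.69 and -0.20 and overlapped between the groups. Counting adjusted p alone, 7 of the 10 laminin genes were higher after CPT and 1 lower, where 31.9% of all genes tested passed, 16.6% higher and 15.3% lower.

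Within the laminin alpha class the balance of chains changed. LAMA4 made up 13% ± 1.95 (SD, n = 4) of the summed CPM of the 5 alpha chains in U2OS DMSO and 0.554% ± 0.272 in U2OS CPT. LAMA3 went the opposite way, from 0.136% ± 0.177 to 7.14% ± 0.999. LAMA1 was the largest fraction in both, at 52.2% ± 1.55 and 54.9% ± 3.36, followed by LAMA5 at 29.8% ± 1.73 and 34.4% ± 3.2. Of the 3 beta chains, LAMB3 was 13.3% ± 2.53 of the sum with DMSO and 38.5% ± 1.39 with CPT. Shares within a class do not depend on how libraries are scaled to each other. The summed level of all 10 laminin genes was 901 ± 69.2 CPM with DMSO and 1219.6 ± 125 CPM with CPT.

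Of the integrin alpha subunits, ITGA2 had the clearest rise. It pairs with beta 1 to bind collagen and also some laminins. Its level was 160.4, 195, 195 and 187 CPM with CPT and 55.3, 53.7, 42.8 and 42.1 CPM with DMSO. All CPT libraries exceeded all DMSO libraries, and the log2 fold change was 2.11 ± 0.12 (SE, adjusted p = 4.84e-15), or 4.31-fold. ITGA11, a collagen receptor of fibroblasts and osteoblast-like cells, went down from 6.48, 3.78, 4.98 and 7.69 CPM to 1.47, 0.931, 0.693 and 0.936 CPM, the latter 2 to 5 counts per library, with no overlap (log2 fold change -2.31 ± 0.39, SE, adjusted p = 1.96e-05). ITGA1 and ITGA10, the other collagen-binding subunits, had log2 fold changes of -0.32 and 0.60 and did not pass. ITGA2 thus made up 76.9% ± 5.43 of the summed collagen-binding alpha CPM with DMSO and 95.8% ± 0.588 with CPT.

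Of the 3 laminin-binding alpha subunits 1 passed the threshold, and the other 2 had an adjusted p under 0.05 below the cutoff on size. ITGA6, which joins beta 1 or, in hemidesmosomes, beta 4, was at 419, 442, 459 and 453 CPM with CPT and 193, 216, 165 and 161 CPM with DMSO. These ranges lay apart, and the log2 fold change was 1.45 ± 0.11 (SE, adjusted p = 4.4e-12). ITGA3, another receptor for laminins that hold alpha 3 or alpha 5, was at 308, 266, 300.2 and 331 CPM and 159, 211, 142 and 188 CPM, also apart. Its log2 fold change of 0.95 ± 0.12 (SE, adjusted p = 2.11e-07) fell just short of the cutoff on size. ITGA7, best known from muscle, was at 27.1, 27.3, 27 and 42.4 CPM and 15.1, 30.6, 13.5 and 22.6 CPM with overlap, the highest CPT value being that of library 29 (log2 fold change 0.77 ± 0.20, SE, adjusted p = 0.0026).

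Among the RGD-binding alpha subunits, ITGAV, the partner of beta 3, beta 5, beta 6 and beta 8, was at 282, 226, 214 and 197 CPM with CPT and 239, 213, 185 and 150.0 CPM with DMSO. The ranges overlapped and the log2 fold change was 0.41 ± 0.12 (SE, adjusted p = 0.0106). ITGA5, the main fibronectin receptor subunit, was at 40.6, 36.6, 40.9 and 49 CPM and 33.3, 42.7, 31.1 and 44.7 CPM and did not pass (adjusted p = 0.113). ITGA8, a receptor of kidney mesenchyme, passed the test downward (adjusted p = 0.0452) on very few counts, 0 in every CPT library and 1 to 3 in each DMSO library. Both groups were at or under 3 counts per library, so no fold is given, and it was not called with no filter or without any 1 of libraries 26 to 29 and 32. It was left untested with filterByExpr and without library 30 or 31, and DESeq2 gave it no adjusted p. ITGA9, a tenascin and VCAM1 receptor, was at 0.294, 1.55, 0.693 and 0.624 CPM with CPT and 4.63, 4.82, 2.64 and 2.4 CPM with DMSO, apart, with 1 to 5 counts in each CPT library (log2 fold change -1.94 ± 0.47, SE, adjusted p = 0.00175), and was left untested with filterByExpr. ITGA4 and ITGAE, subunits typical of leukocytes, had log2 fold changes of 0.86 and -0.24 and overlapped.

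The beta subunits divided. ITGB3, the beta subunit of the vitronectin receptor with alpha V, was at 21, 21, 11.4 and 15.9 CPM with DMSO and 0.588, 0.62, 1.04 and 1.25 CPM with CPT. The CPT libraries held 2 to 4 counts each and the groups were far apart, with a log2 fold change of -4.08 ± 0.32 (SE, adjusted p = 9.44e-12). In GENCODE 29 the exons of ITGB3 overlap those of a read-through gene on the same strand, between which counting may have divided reads. ITGB8, which with alpha V activates latent TGF-beta, fell from 145, 140.4, 119 and 105 CPM to 28.8, 39.4, 35.3 and 36.5 CPM without overlap (log2 fold change -1.68 ± 0.13, SE, adjusted p = 4.49e-12).

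ITGB2, the beta subunit of the leukocyte integrins, was at 27.7, 15.2, 14.5 and 16.2 CPM with CPT and 3.09, 3.44, 1.76 and 1.44 CPM with DMSO. Library 26 was highest, the groups lay apart, and the log2 fold change was 3.13 ± 0.28 (SE, adjusted p = 1.24e-10). ITGB1, the partner of most alpha subunits and the most abundant member, changed little, from 537, 482, 471 and 488 CPM to 523, 524, 539 and 535 CPM. These values overlapped, with a log2 fold change of 0.27 ± 0.10 (SE, adjusted p = 0.0381). ITGB5, a vitronectin receptor subunit, was at 329.8, 319, 320.3 and 287 CPM with CPT and 224, 267, 204 and 262 CPM with DMSO, apart (log2 fold change 0.56 ± 0.12, SE, adjusted p = 0.000266). ITGB4, the hemidesmosomal partner of alpha 6, was low and did not pass at 8.83, 4.34, 10 and 4.68 CPM and 4.63, 8.95, 9.38 and 8.41 CPM (log2 fold change -0.02 ± 0.27, SE, adjusted p = 0.973). ITGB6 had at most 4 counts in any of the libraries numbered 18 to 33 and did not pass, and ITGB7, at most 1 count, was too low to be tested. The share of ITGB1 in the summed beta subunit CPM was 55.7% ± 2.52 with DMSO and 58.5% ± 1.57 with CPT, while ITGB8 went from 14.3% ± 1.65 to 3.87% ± 0.533.

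**Figure D2:**
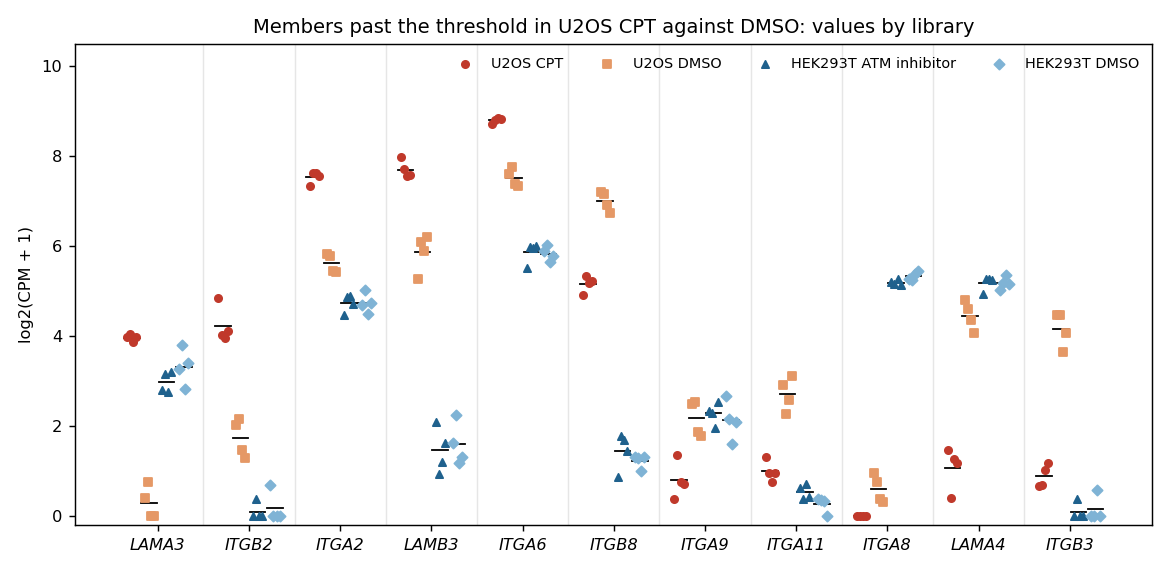
Level as log2(CPM + 1) (y axis) of the 11 members past the threshold in U2OS CPT against DMSO, 1 point per library, in U2OS CPT (red circles), U2OS DMSO (orange squares), HEK293T ATM inhibitor (dark blue triangles) and HEK293T DMSO (light blue diamonds), with black lines at group means. The genes are ordered from the largest rise (LAMA3) to the largest fall (ITGB3). Red and orange points do not overlap in any of the 11, which were picked by the test between these 2 groups. Over all genes tested 31.3% did not overlap between them. The 2 blue groups overlap in 10 of the 11, where 3.07% of all genes tested did not overlap.

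CPM and fitted values are on slightly different scales here. TMM scaling raised the log2 difference of CPT from DMSO by 0.17 for every gene relative to plain CPM, so LAMB1, lower in mean CPM with CPT (301 against 351), had a fitted difference near 0.

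Genes that work with these receptors were counted in 5 lists, which hold 68 genes, of which 61 were tested. Past the threshold were 11 upward and 6 downward, where 7.97% of all genes tested passed upward and 5.5% downward. These shares are also the background for the counts of each list below. Of the 26 genes of the integrin activation and adhesion complex, 1 rose and 1 fell. PXN, the scaffold paxillin, was at 84.5 ± 7.14 CPM (SD, n = 4) with CPT and 43.6 ± 13.5 with DMSO, and NEDD9, a docking protein of the same complexes, at 33.2 ± 3.17 and 115 ± 10.7 CPM (log2 fold changes 1.15 and -1.62, adjusted p = 9.4e-08 and 2.7e-12). Of the 4 hemidesmosome genes 2 rose. COL17A1, the membrane collagen of hemidesmosomes, held 0 to 2 counts in each DMSO library and 262 to 319 in each CPT library (0.267 and 89.2 CPM, log2 fold change 8.24, adjusted p = 2.04e-20). PLEC, the linker plectin, went from 154 ± 34.9 to 313 ± 31.2 CPM (adjusted p = 4.86e-09).

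Of the 6 other laminin receptors 2 rose and 2 fell. SDC4 and SDC1, syndecans that bind matrix through sugar chains, had log2 fold changes of 1.83 and 1.31 (adjusted p = 1.42e-11 and 1.18e-10). DAG1, dystroglycan, and SDC2 had -1.28 and -1.02 (adjusted p = 6.13e-10 and 2.37e-08). Of the 16 basement membrane partners 14 were tested, and 3 rose and 2 fell. The widest log2 fold changes among them were those of SMOC1 (-4.45), FREM2 (-2.97), COL4A1 (1.21) and NTN4 (1.17). SMOC1, a calcium-binding matrix protein, dropped from 125 ± 28.6 to 5.06 ± 1.14 CPM (adjusted p = 4.93e-18). Of the 16 other integrin ligands 11 were tested, and 3 rose (TGFBI 1.77, FBN1 1.61, CCN1 1.23, as log2 fold changes) and EDIL3, which binds alpha V with beta 3 or beta 5, had -1.04 (adjusted p = 5.39e-09).

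Because alpha 3, beta 3, ITGA6 and COL17A1 are known from keratinocytes, the 9 keratinocyte markers were measured beside them. Their summed level was 281 to 355 CPM with DMSO and 721 to 760 CPM with CPT, nearly all of it KRT17 (119 and 284 CPM) and SFN (192 and 454 CPM), which passed with log2 fold changes of 1.43 and 1.41. The defining markers KRT5 and TP63 had at most 2 counts in any U2OS library numbered 26 to 33, KRT14 was at 1.62 CPM with DMSO and 0.0866 CPM with CPT, and KRT6A and DSG3 had 0 counts with DMSO and at most 7 with CPT. Of the list 6 genes were tested, of which 4 passed upward and 1 downward, beside 7.97% and 5.5% of all genes tested. The 7 U2OS markers summed to 3023 to 3480.4 CPM with DMSO and 4823 to 5481 CPM with CPT, CLU being the largest part. By adjusted p alone 5 of them were higher and 1 lower, beside 16.6% and 15.3% of all genes tested. HSPA1A fell, with 533 to 769 counts per library with DMSO and 245 to 296 with CPT. The part of the keratinocyte and U2OS markers in the result was not tested.

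Next, the unstressed lines were compared (U2OS DMSO, libraries 30 to 33, against HEK293T DMSO, libraries 22 to 25). These DMSO libraries are also the controls of the other comparisons, so values are given side by side without relating the comparisons to each other. Of 29 members tested, 19 were higher in U2OS and 3 higher in HEK293T, where 39.9% of the 19739 genes tested were past the threshold, 21.8% higher in U2OS and 18.1% lower. The median log2 difference was 1.71 over the members and 0.014 over all genes tested. U2OS cells, of mesenchymal origin, held 1582.5 ± 136 CPM of summed integrin RNA and HEK293T cells 366 ± 8.41 CPM. Summed laminin RNA was 901 ± 69.2 and 523 ± 30.1 CPM. TMM scaling raised the log2 difference by 0.22 relative to CPM.

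**Figure D3:**
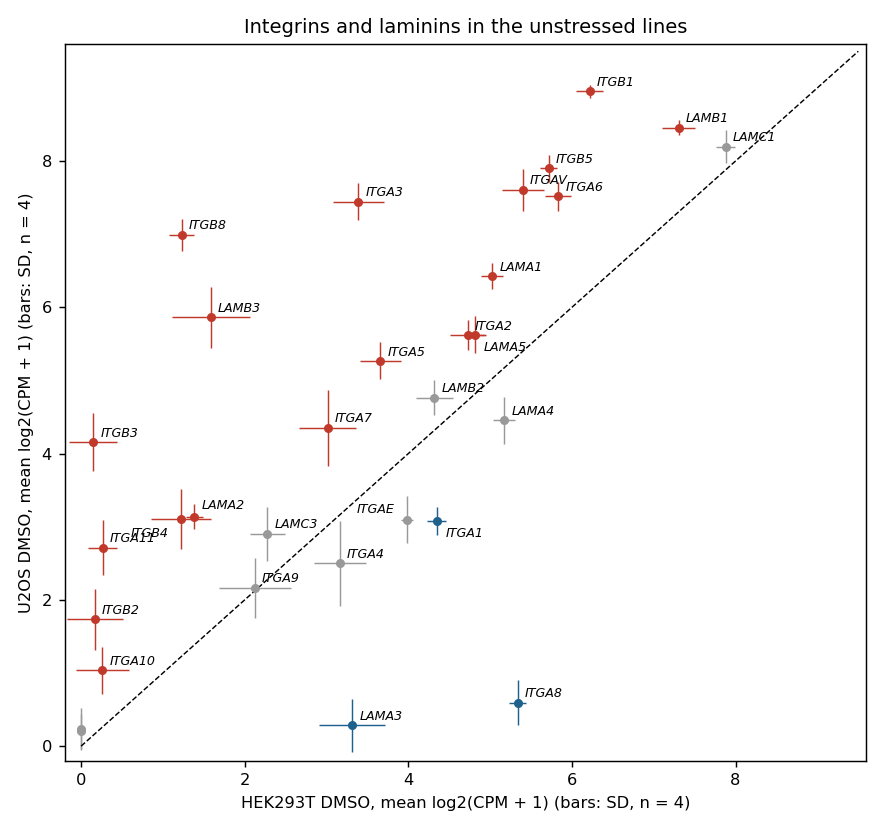
Mean log2(CPM + 1) of each of the 31 members in HEK293T DMSO (x axis) and U2OS DMSO (y axis), with SD bars over 4 libraries and a dashed line of equality. Red genes (19) passed the threshold as higher in U2OS, blue genes (3: ITGA1, ITGA8 and LAMA3) as higher in HEK293T, and grey genes did not pass or were not tested (the unlabelled pair near the origin is ITGB6 and ITGB7).

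All 6 beta subunits tested were higher in U2OS. The widest gaps were those of ITGB3 and ITGB8. ITGB8 measured 1.5, 1.43, 1 and 1.48 CPM in HEK293T DMSO beside the U2OS values above, a log2 difference of 6.75 ± 0.19 (SE, adjusted p = 7.64e-25). ITGB3 had 2 counts in all HEK293T DMSO libraries together and 234 in U2OS DMSO, a ratio of 121 with a counting interval of 33.2 to 1007. ITGB2 likewise had 2 and 32 counts, a ratio of 16.6 (interval 4.23 to 143). ITGB1 was at 68.2, 65.1, 82.9 and 78.8 CPM in HEK293T, all far under the U2OS libraries (log2 difference 2.97 ± 0.11, SE, adjusted p = 1.57e-21). ITGB5 stood at 53.8, 47.4, 55.6 and 49.5 CPM and ITGB4 at 0.598, 1.71, 1.75 and 1.48 CPM there, also without overlap (log2 differences 2.44 ± 0.12 and 2.68 ± 0.34, SE, adjusted p = 1.53e-18 and 2.43e-08).

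The 3 laminin-binding alpha subunits were higher in U2OS as well. ITGA3 was at 12.3, 10.9, 7.52 and 8 CPM in HEK293T, a log2 difference of 4.41 ± 0.16 (SE, adjusted p = 4.27e-22). ITGA6 was at 58.3, 64, 48.8 and 53.6 CPM and ITGA7 at 6.58, 10.6, 6.01 and 5.92 CPM in HEK293T, both under every U2OS DMSO library (log2 differences 1.93 ± 0.12 and 1.71 ± 0.24, SE). ITGA6 was the leading laminin-binding subunit of HEK293T, at 77% ± 2.14 of their summed CPM, whereas in U2OS DMSO ITGA3 and ITGA6 were nearly level, at 46.1% ± 3.2 and 48.6% ± 4.19.

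ITGA8 and ITGA1 went against this direction. ITGA8 was at 37.4, 36.8, 40.8 and 42.7 CPM in HEK293T and 0.926, 0.688, 0.293 and 0.24 CPM in U2OS DMSO, a log2 difference of -5.95 ± 0.28 (SE, adjusted p = 4.07e-19). ITGA1, a receptor for collagen and laminin, was at 18.2, 20, 21.5 and 17.8 CPM in HEK293T and 7.1, 6.19, 8.2 and 8.65 CPM in U2OS, apart, with a log2 difference of -1.12 ± 0.19 (SE, adjusted p = 4.25e-06). Nephronectin (NPNT), the ligand of alpha 8 in the kidney and a gene of the ligand list, had 0 counts in all 4 U2OS DMSO libraries and 8.63 ± 1.85 CPM in HEK293T, at least 9.7-fold higher when U2OS is set at 3 counts per library.

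The other alpha subunits past the threshold were higher in U2OS. ITGAV was at 53.5, 38.3, 39.3 and 35.5 CPM and ITGA5 at 11.7, 9.71, 15 and 10.7 CPM in HEK293T, and the U2OS libraries above them did not overlap (log2 differences 2.45 ± 0.13 and 1.91 ± 0.17, SE). ITGA2 was at 24.8, 31.4, 21.3 and 25.5 CPM in HEK293T (log2 difference 1.13 ± 0.14, SE). The collagen receptors ITGA11 and ITGA10 had 3 counts each over all HEK293T DMSO libraries, against 81 and 15 in U2OS DMSO, ratios of 28 (interval 9.24 to 138) and 5.18 (interval 1.47 to 27.9). In single libraries ITGA10 was at 0.617, 1.03, 1.76 and 0.961 CPM in U2OS DMSO and 0, 0.286, 0 and 0.592 CPM in HEK293T DMSO, which lay close to the floor of 3 counts.

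LAMA3 and LAMB3 differed between the lines in opposite directions. LAMA3 was at 8.67, 12.9, 6.01 and 9.48 CPM in HEK293T, where U2OS DMSO held 3 counts in all (ratio 41.8, interval 14 to 205). LAMB3 was the reverse, at 2.09, 3.71, 1.25 and 1.48 CPM in HEK293T (log2 difference 5.01 ± 0.26, SE, adjusted p = 4.63e-18). HEK293T thus held LAMA3 RNA with little LAMB3, and U2OS DMSO held LAMB3 RNA with almost no LAMA3. LAMA4 was at 31.4, 35.1, 39.8 and 34.4 CPM in HEK293T and made up 33.6% ± 3.57 of its alpha chains, beside LAMA1 at 30.1% ± 2.25, and the ranges of these shares overlapped.

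LAMA1, LAMA5 and LAMB1 were at 35.6, 32.3, 29.3 and 29.3, at 29.9, 24.6, 28.1 and 26.4 and at 144, 135, 173 and 181 CPM in HEK293T, all lower than in U2OS DMSO (log2 differences 1.65 ± 0.12, 1.06 ± 0.14 and 1.38 ± 0.12, SE). LAMA2, the chain of muscle basement membrane, was at 8.95, 7.23, 8.5 and 6.73 CPM in U2OS DMSO and 1.79, 1.43, 1.75 and 1.48 CPM in HEK293T (log2 difference 2.47 ± 0.30, SE, adjusted p = 6.46e-09). LAMC1, high in both lines, was at 253, 209, 246 and 232 CPM in HEK293T and overlapped U2OS DMSO (log2 difference 0.55 ± 0.11, SE). ITGA9, ITGA4, ITGAE, LAMA4, LAMB2 and LAMC3 also did not pass. With all 8 libraries labelled HEK293T DMSO as controls, among them libraries 3, 5 and 7, which resemble U2OS, 0 members passed. ITGA10 did not pass without library 32, nor LAMA5 without library 31. Single libraries holding the few counts of the lower line moved 4 log2 differences, to 8.97 for ITGB3 without library 24, 6.17 for ITGB2 without library 22, 3.34 for ITGA10 without library 25 and -5.98 for LAMA3 without library 31.

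Of the 61 adhesion genes tested between the lines, 36 were higher in U2OS and 6 lower. Among all genes tested 21.8% were higher in U2OS and 18.1% lower. In the adhesion complex list 14 of 25 tested were higher in U2OS and 0 lower, led by NEDD9 (log2 difference 6.41), TNS1 (4.24) and FERMT1 (3.75), beside FERMT3, which had 0 to 3 counts in every library of both lines. PLEC, DST and CD151 of the hemidesmosome list were higher by 2.91, 2.17 and 1.54 on the log2 scale. SDC1, BCAM, DAG1 and SDC4 led the laminin receptors (3.56, 2.67, 1.62 and 1.55). Basement membrane partners went both ways, 5 each, with SPARC at 950 ± 89.6 CPM in U2OS and 6.88 ± 3.90 in HEK293T, and NID2 and COL4A6 at 29.1 ± 4.68 and 19.1 ± 4.71 CPM in HEK293T and under 1 CPM in U2OS. FREM1 was lower in U2OS on 1 count against 14 (ratio 13.5, interval 2.06 to 571). Of the ligands THBS1 and CCN2 differed by 6.36 and 5.84 on the log2 scale, and SPP1 had 203 counts against 2 (ratio 105, interval 28.7 to 874).

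The third comparison set HEK293T cells with the ATM inhibitor (libraries 18 to 21) against their DMSO controls (22 to 25). None of 27 members tested was past the threshold upward or downward (0 and 0) in edgeR's quasi-likelihood fit. Of the 18413 genes tested 0% passed and 1019 had an unadjusted p under 0.05, while DESeq2 called 0 genes and edgeR's likelihood ratio test 1 upward and 1 downward. Fitted log2 fold changes of the members had a median of 0.0073, against 0.0026 over all genes tested. Their smallest unadjusted p was 0.143 and their smallest adjusted p 0.921, both of LAMB1. ATM RNA was 54.5, 55.7, 74.1 and 64.4 CPM with the inhibitor and 72.4, 82, 58.9 and 57.8 CPM with DMSO, overlapping, and is not what the drug acts on.

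Values with and without the inhibitor overlapped for 26 of the 27 members tested, all but ITGA11. Over all genes tested 3.07% did not overlap, so overlap was the rule for genes at large. LAMC1, their most abundant member, was at 188, 219, 227 and 245 CPM with the inhibitor, and LAMB1 at 179, 221, 159 and 133 CPM, both overlapping the DMSO values above. ITGB1 was at 61.6, 59.1, 81.1 and 71.9 CPM and ITGA6 at 44.8, 61.8, 61 and 63.4 CPM, with log2 fold changes of -0.05 ± 0.12 and 0.10 ± 0.12 (SE). LAMA4 was at 29.6, 37.7, 37.7 and 36.7 CPM, LAMA3 at 5.97, 7.83, 5.75 and 8.22 CPM and ITGA8 at 35.5, 34.7, 37.4 and 33.9 CPM. The log2 fold changes of these 3 were 0.06 ± 0.13, -0.35 ± 0.24 and -0.09 ± 0.12 (SE). ITGA11 had 6 counts in all with the inhibitor and 3 with DMSO, without overlap in CPM but with an adjusted p of 0.946. ITGB2, ITGB3, ITGB6 and ITGB7 were too low to be tested. Of 58 adhesion genes tested 0 passed as well.

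Other members were close to their controls as well. ITGB5 was at 48.8, 49.4, 43.4 and 55.8 CPM, ITGAV at 31.2, 42.2, 38 and 42.5 CPM, LAMA1 at 29, 33.1, 26.8 and 29.5 CPM and LAMA5 at 22.8, 22, 24.6 and 29.8 CPM with the inhibitor. ITGA2 stood at 21.2, 28.3, 28.7 and 25.3 CPM and ITGA3 at 11.7, 9.64, 7.03 and 8.22 CPM. LAMB3 was at 3.26, 0.904, 1.28 and 2.06 CPM and ITGB8 at 0.814, 2.41, 2.24 and 1.71 CPM. The widest log2 fold change among these 8 was that of ITGB8, at 0.45 ± 0.47 (SE).

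Libraries 1 to 17 were compared by label and give values only. Between the libraries labelled HEK293T CPT and those labelled HEK293T DMSO, 0 of 30 members were past the threshold in edgeR's quasi-likelihood test with 0.205% of all genes, of which 2705 had an unadjusted p under 0.05. DESeq2 and the likelihood ratio test called 2 members each. Library 17 differs from the other 7 in cell line profile. Without it 1 member was higher and 2 lower in the libraries labelled CPT, with 4.46% of all genes past the threshold. ITGB4 was at 14.6, 27.9, 27.8 and 21.8 CPM in libraries 2, 4, 6 and 8 and at 6.49, 7.39 and 6.27 CPM in libraries 3, 5 and 7, while library 17 held 1.33 CPM. The 2 sets did not overlap (log2 difference 1.81 ± 0.25 without library 17, SE, adjusted p = 2.79e-06).

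LAMA4 was at 14.6, 7.22, 14.6 and 11.2 CPM in libraries 2, 4, 6 and 8, at 35, 47.1 and 54.5 CPM in libraries 3, 5 and 7 and at 30.4 CPM in library 17 (log2 difference -1.94 ± 0.20, SE, adjusted p = 9.75e-09 without library 17). ITGB3 was at 0.811, 2.41, 3.12 and 1.72 CPM, at 9.09, 10.4 and 6.82 CPM and at 0 CPM in the same order (log2 difference -1.97 ± 0.36, SE, adjusted p = 0.000187). LAMB3 stood at 122, 111, 132 and 97.4 CPM and 65.3, 85.1 and 51.8 CPM, apart, and under the cutoff on size (log2 difference 0.76 ± 0.18, SE). LAMA3 had at most 2 counts in libraries 2, 4, 6 and 8.

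Between the libraries labelled U2OS ATM KO and those labelled U2OS WT, 0 of 29 members passed edgeR's quasi-likelihood test with 3.23% of all genes, of which 4408 had an unadjusted p under 0.05. DESeq2, which gave 8 members no adjusted p, called 4, and the likelihood ratio test 7. Library 1 is the one whose profile differs there. Without library 1, 1 member was higher and 2 lower in the libraries labelled ATM KO, with 13.3% of all genes past the threshold. LAMB3 had 4 to 22 counts in each of libraries 10, 12, 14 and 16 (2.14, 1.23, 1.6 and 3.46 CPM) and 0 or 1 count in libraries 11, 13 and 15, and 51.5 CPM in library 1. LAMA1 was at 5.82, 5.86, 6.4 and 5.5 CPM in libraries 10, 12, 14 and 16, at 11.8, 12.7 and 11.1 CPM in libraries 11, 13 and 15 and at 54.3 CPM in library 1. The first sets did not overlap (log2 difference -1.06 ± 0.22 without library 1, SE, adjusted p = 0.000478). LAMC3 was at 1.22, 0.617, 0.64 and 2.2 CPM and 3.03, 4.23 and 6.22 CPM in the same sets (log2 difference -1.74 ± 0.40, SE, adjusted p = 0.00138). Under the cutoff on size but with an adjusted p under 0.05 were ITGAV, higher, and ITGA2, ITGB5 and LAMB1, lower.

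**Figure D4:**
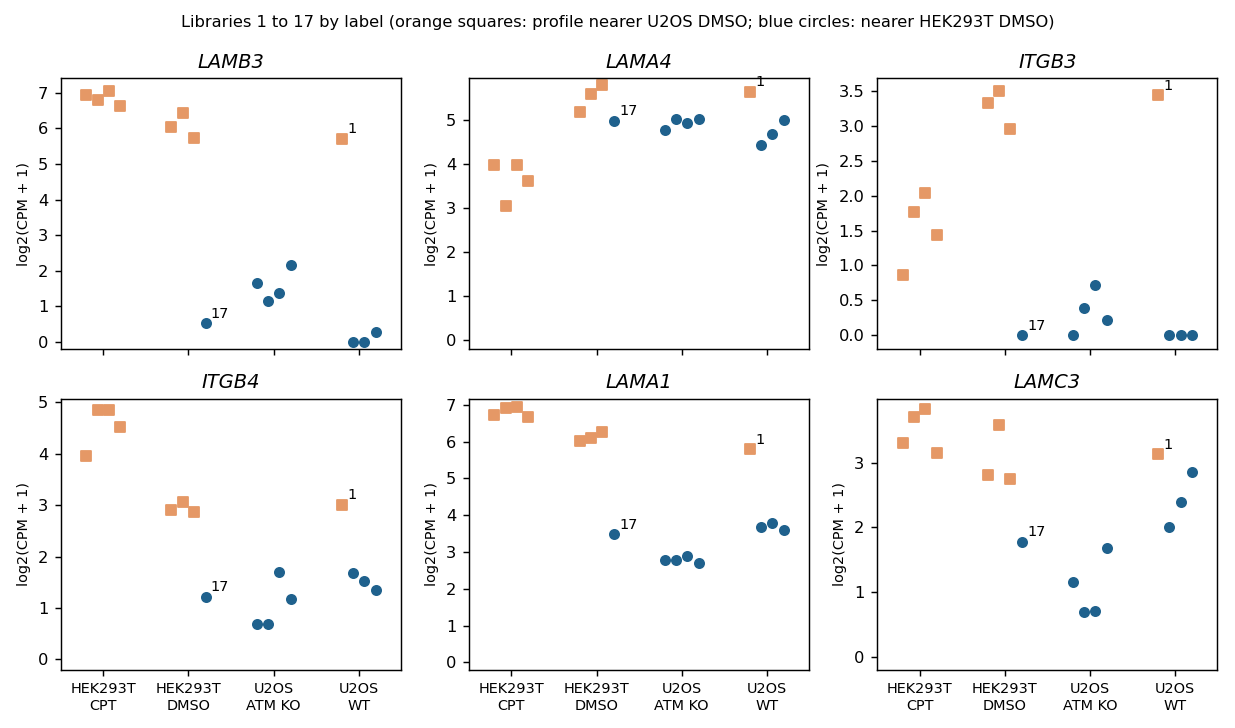
Level as log2(CPM + 1) (y axis) of 6 members in each of the libraries numbered 1 to 17, by deposited label (x axis), 1 point per library, with libraries 1 and 17 marked. Orange squares are libraries whose profile was nearer to U2OS DMSO and blue circles those nearer to HEK293T DMSO. Libraries 1 and 17 have the colour of their labelled cell line, unlike the other libraries shown. For LAMB3, ITGB3, ITGB4 and LAMA1, libraries 1 and 17 sit with points of their own colour, not with the rest of their labelled group.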

How the data were processed

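RNA 3′ ends were sequenced with the Lexogen QuantSeq FWD kit with molecular identifiers, and the authors ran Lexogen's pipeline on BlueBee. The deposited values are raw counts per Ensembl gene, 60107 genes. The aligner and genome build are not given in the sources used here. The 5 summary rows (10.9% to 40.6% of counts) and 92 spike-ins were left out. IDs were matched to GENCODE 29 symbols (56531 matched). ITGA1, ITGB3 and ITGB6 overlap other genes on their strand, so reads there may be divided.

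A gene was tested where 2 or more libraries held over 1 count of it, in edgeR 4.0.16 (R 4.3.3) with TMM scaling and the quasi-likelihood F-test on the groups compared, calling genes whose log2 fold change was beyond 1 either way with p under 0.05 after Benjamini-Hochberg adjustment. The study used the likelihood ratio test. Alternatives were that test, DESeq2 1.42.0, other filters and scaling, adjusted p alone, other control sets and leaving out each library. The p-values measure the spread between libraries. Each SE is the size of the log2 fold change divided by the square root of the F statistic. Where 1 group holds few counts, it can be smaller than counting error alone. Intervals are exact, at 95%, and cover counting error only, as does the floor of 3 counts per library. On simulated counts for U2OS CPT against DMSO (17904 genes), 99% of the 100 genes changed by a log2 fold of 1.5 were recovered. The changed genes were drawn only from those well above the floor in the control libraries. That share therefore does not cover members at a few CPM or less in U2OS DMSO, such as LAMA3, ITGA8, ITGA9, ITGA11 and ITGB2.

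Groups follow the labels, except that libraries 18 to 21 are read as ATM inhibitor libraries. Libraries within each labelled group were compared in 48 pairs and all differed beyond sampling noise, with chi-square per degree of freedom of 1.82 to 119 over genes with a summed count of at least 20. The values from 98.2 upward were all of pairs holding library 1 or 17, which set 2 cell line profiles against each other. The highest among the remaining pairs was 24.8, for libraries 6 and 8. The members and lists were chosen with earlier results of these data known. Named with values in every library were members past the threshold in U2OS CPT against DMSO or between the lines, or at a mean of 50 CPM in libraries 18 to 33, and up to 4 genes of each adhesion list. Promoter letters came from RefSeq tables.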

Additional observations from a re-analysis of the deposited data

Results flagged for a closer look

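Single libraries stood far from the other 3 of their group, by Dixon's test at the 95% level, in 12 of 100 gene and group combinations screened among libraries 18 to 33. Chance alone sets apart about 1 in 20 where values are continuous and normally spread. That rate does not hold for groups of a few counts, so the number flagged cannot be read against it. In U2OS CPT, library 26 held 27.7 CPM of ITGB2 and library 29 held 42.4 CPM of ITGA7, both the highest of their group. With the ATM inhibitor, library 18 was lowest for ITGA6 at 44.8 CPM and for LAMA4 at 29.6 CPM, and library 19 was apart for LAMA2 at 2.41 CPM. In HEK293T DMSO, library 23 held 10.6 CPM of ITGA7 and library 24 held 1.00 CPM of ITGB8. The ITGB8 value stands for 4 counts, against 5 in each other library of that group. The LAMA2 value of library 19 stands for 8 counts, against 4 or 5, so both are limited by depth.

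The other 5 rest on 0 to 2 counts. Library 25 held 0 CPM of ITGA11 and library 22 held 0.598 CPM of ITGB2. Library 24 held 0.501 CPM of ITGB3, and library 19 held 0.301 CPM of ITGB2 and 0.301 CPM of ITGB3.

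Whole profiles stood apart in 2 libraries numbered 1 to 17. The correlation of log2(CPM + 1) with the U2OS DMSO libraries was 0.869 in library 17, labelled HEK293T DMSO, and 0.974 in library 1, labelled U2OS WT, unlike the other 3 libraries of each group. Members were not screened singly in these 2 groups, which hold libraries of both profiles.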

How the results depend on the processing

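Of the 11 members past the threshold in U2OS CPT against DMSO, 9 were past it, in the same direction, under every alternative run. With filterByExpr, which tested 26 members, 9 passed, without ITGA8 and ITGA9. ITGA8 was also not called under the other settings given above. The count was 10 to 13 when single libraries were left out and 22 without a cutoff on fold change, where the adhesion genes went from 17 to 33. Between the unstressed lines 22 members and 42 adhesion genes passed, and 0 and 3 with all 8 libraries labelled HEK293T DMSO, which mix both profiles (21 to 23 members without single libraries, and 20 with filterByExpr, without ITGA10 and ITGB2). The inhibitor comparison gave 0 members under every alternative.

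By label, the CPT and DMSO libraries numbered 1 to 17 gave 0 members, against 2 with the likelihood ratio test, 2 with DESeq2, 1 with no filter, 3 with all 8 DMSO libraries, 3 without library 17 and 0 to 3 without single libraries. The libraries labelled ATM KO and WT gave 0, against 7, 4 and, with filterByExpr, 1, and 3 without library 1 (0 to 3 without single libraries). LAMB3 turned there from a log2 difference of -2.62 to 4.67 without library 1 (-3.20 to 4.67 without single libraries). Over all genes, 7872 calls between the lines became 339 with all 8 DMSO libraries and 5090 with filterByExpr. For U2OS CPT 2569 became 6091 without the fold cutoff and 1652 with filterByExpr. The first labelled comparison went from 39 to 389 with the likelihood ratio test, 292 with DESeq2, 1193 with all 8 DMSO libraries and 826 without library 17, and the second from 631 to 1755, 1120 and, without library 1, 2562. The paper describes 4 independent repeats per experiment, but the labels do not say which libraries share a repeat. No paired analysis was therefore run, and any such pairing is left out of the fits. Members under about 1 CPM are limited by depth.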
